A study of Mus musculus with 6 samples.

Results

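The 9 genes followed here bring glucose into the cell, trap it there and set the pace of its breakdown: the glucose transporters Slc2a1, Slc2a3, Slc2a4, Slc2a6 and Slc2a12, the hexokinases Hk1 and Hk2, and the bifunctional enzymes Pfkfb1 and Pfkfb2. They were taken by symbol from a table of 23337 genes in sorted heart muscle cells, and all 9 were found and passed the filter on low counts, among 14587 genes tested. The libraries came from wild-type mice that received an adeno-associated virus (AAV) on postnatal day 1. The virus carried GFP as control (AAV-GFP), XBP1S or ATF6N, and the groups are called GFP, XBP1S and ATF6N after it. Each group had 2 libraries of cardiomyocytes isolated at 4 weeks of age by perfusion of the heart and sorted by fluorescence. XBP1S usually names the product of spliced Xbp1 mRNA and ATF6N the fragment of ATF6 that enters the nucleus. These factors switch on genes of the unfolded protein response, which cells start when proteins misfold in the endoplasmic reticulum (ER). No source used here gives the promoter of the transgenes, the dose or the sex of the mice. Nor does one say whether the replicates were separate animals, so that p-values measure only the spread between these libraries, which may be technical.

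Glucose crosses the cell membrane by facilitated diffusion through GLUT proteins, the products of the Slc2a genes. In adult heart, GLUT4 (Slc2a4) is held in vesicles and moved to the surface by insulin and contraction, while GLUT1 (Slc2a1) gives a basal supply that is more prominent before birth. Hexokinases phosphorylate the sugar on entry and so keep it in the cell, and PFKFB enzymes make and break the fructose bisphosphate that activates phosphofructokinase.

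Of the 9 genes, 1, Slc2a6, passed edgeR's test at an adjusted p below 0.05 in each of the 3 comparisons of groups, where 0.315% (XBP1S against GFP), 0.514% (ATF6N against GFP) and 0.226% (ATF6N against XBP1S) of all genes tested did. Slc2a6 encodes GLUT6, a transporter of intracellular membranes known from spleen, brain and inflammatory macrophages. Because the delivered proteins bind DNA, the 250 bases upstream of the start of Slc2a6 are shown with those of Hk2, the one gene with a match to an element of the unfolded protein response among the 7 of the 9 found in the promoter table. Both are from RefSeq (GRCm38.p6), on the minus strand at chr2:27027999-27028248 and chr6:82774455-82774704, written 5′ to 3′ with matches to the searched motifs in capitals.
Slc2a6: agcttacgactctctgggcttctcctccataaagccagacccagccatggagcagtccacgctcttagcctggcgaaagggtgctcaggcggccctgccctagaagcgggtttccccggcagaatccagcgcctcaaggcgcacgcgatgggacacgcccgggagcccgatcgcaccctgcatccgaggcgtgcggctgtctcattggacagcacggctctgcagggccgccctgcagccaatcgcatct
Hk2: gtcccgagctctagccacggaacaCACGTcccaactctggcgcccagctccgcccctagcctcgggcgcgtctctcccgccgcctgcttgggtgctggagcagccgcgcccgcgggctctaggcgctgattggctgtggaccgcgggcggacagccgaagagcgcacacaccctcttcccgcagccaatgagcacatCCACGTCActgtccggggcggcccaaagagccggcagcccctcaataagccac

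Both strands of these windows and of the 50 bases that follow were searched for exact matches to 4 motifs. Near matches, with a letter changed, were not counted. These were the ER stress element (CCAAT and CCACG with any 9 bases between them), its second form (ATTGG and CCACG with any 1 base between them), the unfolded protein response element TGACGTGG, and the core ACGTG, which the third contains. The Slc2a6 window held no exact match to any of them, which leaves near matches unexamined. The ER stress element was in 0.119% of all windows and its second form in 0.0365%. The Hk2 window held the unfolded protein response element on the opposite strand, starting 53 bases before the start, which 0.676% of all 32851 promoter windows hold, and the core also at 226 bases before it. The core, within the longer element or outside it, was in 19.6% of windows, among them those of Slc2a1, 1 of the 2 windows of Hk1 and 2 of the 3 windows of Pfkfb2. A match describes letters and not a bound site. Slc2a3 and Slc2a4 were not matched in the promoter table.

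Some properties of the libraries touch every result. Total counts ran from 67702482 to 112049342 per library. On the first principal component, with 43.9% of the variance, GFP replicate 1 lay away from the other libraries. The ribosomal RNA precursor Rn45s took 0.337% of its counts against 0.0319% to 0.130% elsewhere. Of the delivered genes, Xbp1 stood at 98 and 115 CPM (reads scaled to the effective library size) in GFP, 160 and 166 in XBP1S and 145 and 152 in ATF6N, so that both treated groups lay above GFP (edgeR adjusted p = 0.307 and 0.358) and XBP1S did not pass against ATF6N (0.802). Atf6 stood at 44.9 and 70.6 CPM in GFP, 77.0 and 111 in XBP1S and 162 and 158 in ATF6N, again with both treated groups above GFP (edgeR adjusted p = 0.425 and 0.126). In the authors' deposited table Atf6 passed in ATF6N against GFP (log2 fold change 1.47, adjusted p 0.000799), where 2.71% of genes passed. There it did not pass in XBP1S (adjusted p 0.823), and Xbp1 passed in neither comparison (0.829 in XBP1S and 0.447 in ATF6N). The 4 Y-linked genes Ddx3y, Eif2s3y, Kdm5d and Uty summed to between 0 and 0.0215 CPM in XBP1S, 31.6 to 43.0 in GFP and 175 to 186 in ATF6N. Xist, transcribed from the inactive X chromosome, stood at 43.1 and 20.2 CPM, 24.6 and 7.88 CPM, and 0.197 and 0.0919 CPM in the same groups. The groups therefore differed in sex-linked transcripts as well as in the virus, the GFP libraries held both kinds, and virus and sex cannot be told apart in any comparison below.

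All 10 defining cardiomyocyte genes checked, Myh6 and Tnnt2 among them, were abundant, summing to 116478 to 117560 CPM in GFP, 87475 to 96480 in XBP1S and 133312 to 134780 in ATF6N. Markers of other cells were also present, at lower sums than the cardiomyocyte genes. The 10 endothelial markers summed to 1242 to 1505, 1679 to 1826 and 752 to 808 CPM in that order, the 10 fibroblast markers to 948 to 1180, 1608 to 1729 and 1353 to 1402 CPM, and the 10 smooth muscle and pericyte markers to 965 to 1082, 1102 to 1202 and 1286 to 1334 CPM. The 10 macrophage and leukocyte markers summed to 40.8 to 43.4, 54.5 to 64.6 and 57.5 to 57.8 CPM. Of the 5 erythroid markers, the 4 globin genes were listed at 0 in all libraries, and Alas2 gave 12.2, 5.81 to 6.62 and 3.22 to 4.04 CPM, and fell in ATF6N against GFP (log2 fold change -1.75, edgeR adjusted p = 0.0470), a call lost without either XBP1S or either ATF6N library (0.141 to 0.593), with the 4 libraries compared (0.152) and on library size alone (0.0617). None of the other markers passed in any comparison. In bulk RNA, fewer cells of a type and less RNA per cell cannot be told apart.

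Levels of different genes were compared in RPKM, which is CPM divided by the gene's exon length in kilobases. Slc2a4 stood first in every group, at 211 ± 28.2 RPKM in GFP, 154 ± 3.56 in XBP1S and 239 ± 5.28 in ATF6N (mean ± SD, n = 2 libraries throughout). Hk1 followed at 61.4 ± 30.7, 67.6 ± 15.1 and 102 ± 4.51 RPKM, then Hk2 at 34.5 ± 0.944, 20.5 ± 3.28 and 38.5 ± 1.92 RPKM. The libraries of these 3 genes did not overlap within any group. Below them, in GFP, came Slc2a1 (7.95 ± 2.16 RPKM), Pfkfb2 (5.46 ± 0.287), Pfkfb1 (3.03 ± 0.621), Slc2a12 (1.28 ± 0.875), Slc2a3 (0.128 ± 0.174) and Slc2a6 (0.0837 ± 0.0162). The last 2 overlapped between libraries. The order changed in the treated groups: Pfkfb2 and Slc2a1 overlapped in ATF6N at 8.57 ± 0.187 and 8.39 ± 0.493 RPKM, Pfkfb1 and Slc2a12 overlapped in XBP1S, and Slc2a6 moved from the bottom of the list to above Pfkfb1 in ATF6N.

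**Figure D1:**
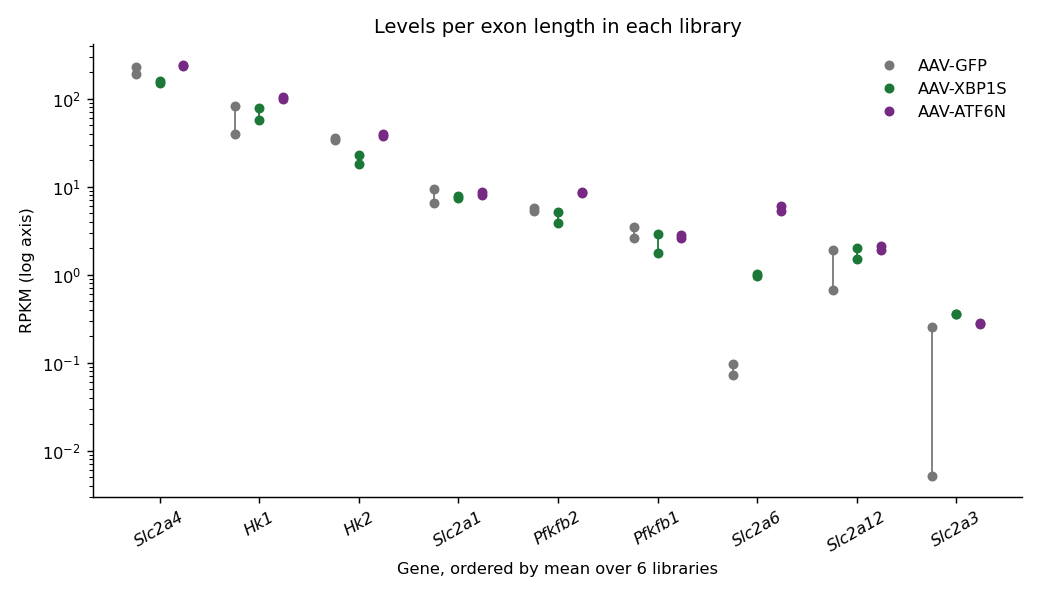
Level of each gene per exon length in RPKM on a log axis, with 1 point per library and a line joining the 2 libraries of a group. Slc2a4 lies highest in every group, and Slc2a6 covers the widest range, from 0.0723 RPKM in a GFP library to 5.98 RPKM in an ATF6N library.

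Within a library, Slc2a4 made up 93.4% to 96.4% of the summed RPKM of the 5 transporters. Slc2a1 gave 3.24% and 3.90% of it in GFP, 4.52% and 4.65% in XBP1S and 3.37% and 3.19% in ATF6N. The share of Slc2a6 was 0.0480% and 0.0298% in GFP, 0.619% and 0.573% in XBP1S and 2.03% and 2.37% in ATF6N. The gene with the largest relative difference thus remained a minor transporter transcript in every library. Outside the 9 genes, the intracellular transporter gene Slc2a8 had more transcript per length than Slc2a1, with group means of 26.2, 16.1 and 21.5 RPKM in GFP, XBP1S and ATF6N.

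Of the 9 genes, 1 rose and none fell in XBP1S against GFP, where 0.315% of all genes tested passed edgeR's test at an adjusted p below 0.05 (0.178% higher and 0.137% lower). In ATF6N against GFP, 1 of the 9 rose and none fell, where 0.514% of all genes passed (0.35% higher and 0.165% lower). In ATF6N against XBP1S, 1 was higher and none lower, where 0.226% of all genes passed (0.171% higher and 0.0548% lower). The first 2 comparisons share the GFP libraries. At an unadjusted p below 0.05 the other genes were Slc2a4 and Hk2 in the comparison of XBP1S with GFP, Pfkfb2 in that of ATF6N with GFP, and Slc2a4, Hk2 and Pfkfb2 between ATF6N and XBP1S. Over all genes tested, 11.6%, 13.5% and 13.2% had such a p. The median log2 fold change of the 9 was -0.07, 0.65 and 0.60 in these comparisons, beside -0.01, -0.02 and -0.01 over all genes tested. Without GFP replicate 1, ATF6N against GFP gave -0.18 for Slc2a1, 0.13 for Slc2a3, 0.050 for Slc2a4, 6.27 for Slc2a6 and 0.079 for Slc2a12. That fit gave 0.30 for Hk1, 0.13 for Hk2, -0.36 for Pfkfb1 and 0.60 for Pfkfb2. The median of 0.65 thus depended on that library. In ATF6N, 6 of the 9 lay above GFP in every library and none below (27.9% and 26.7% of all genes tested did so). Against XBP1S, 6 lay above and 1 below (30.1% and 26.8%). In XBP1S, 2 lay above GFP in every library and 3 below (19.1% and 16.8%).

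**Figure D2:**
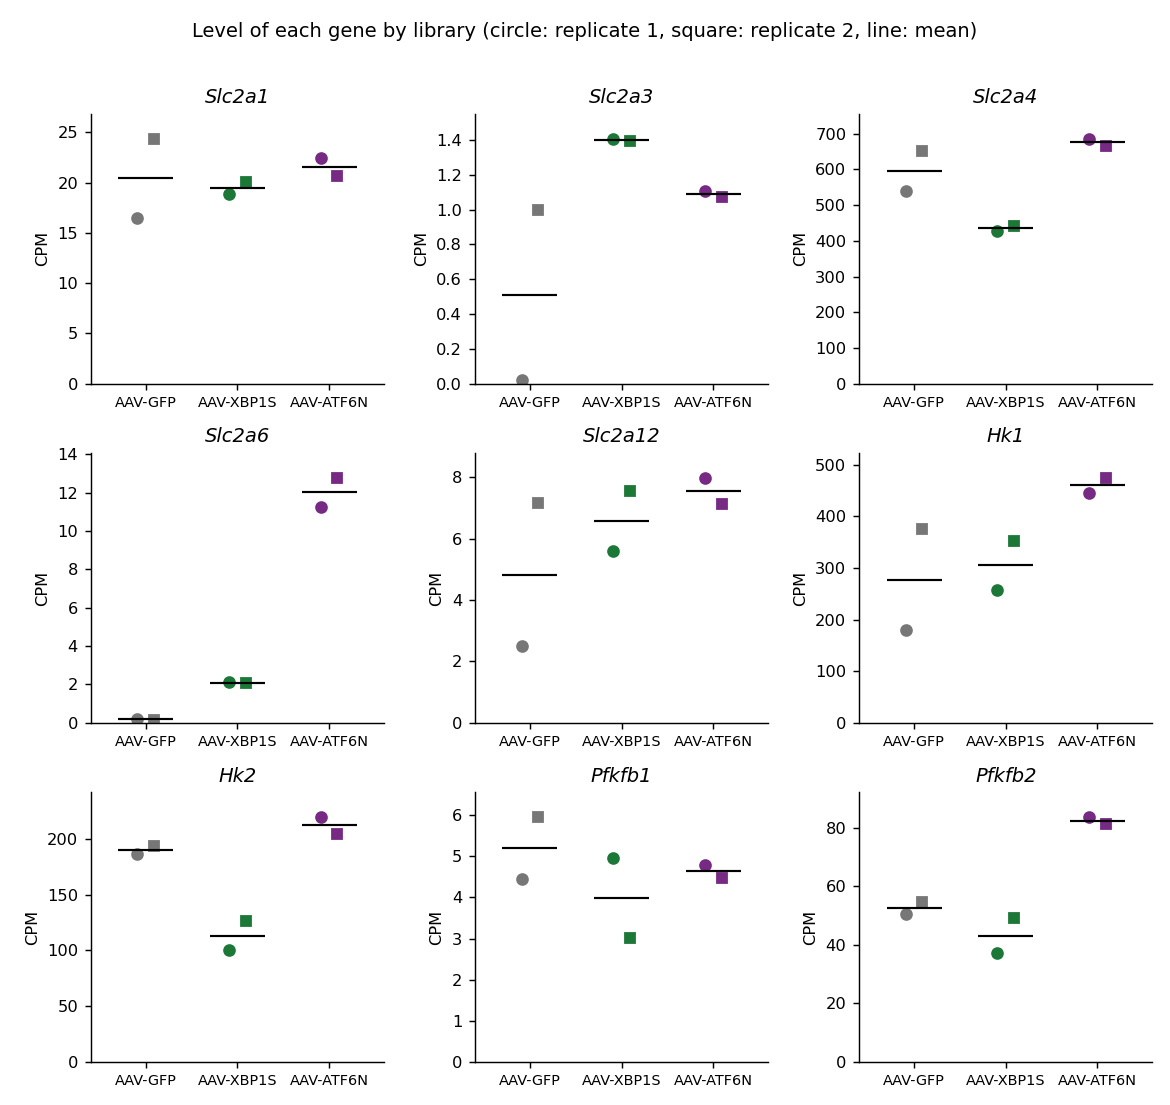
CPM of each gene in the 6 libraries, with replicate 1 as a circle, replicate 2 as a square and the group mean as a line; each panel has its own axis from 0. Slc2a6 climbs from GFP through XBP1S to ATF6N, while Hk2 and Slc2a4 are lowest in both XBP1S libraries.

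Slc2a6 (chromosome 2, 27021365 to 27027998, minus strand, mm10) gave 20 and 11 reads in the GFP libraries, 199 and 168 in XBP1S and 913 and 834 in ATF6N. In CPM these were 0.203 and 0.154, 2.14 and 2.05, and 11.3 and 12.8. The 3 groups were fully separated, and each replicate lay close to its partner. Slc2a6 rose 11.7-fold in XBP1S (log2 fold change 3.53, SE 0.31, edgeR adjusted p = 0.0134) and 67.2-fold in ATF6N (6.04, SE 0.33, adjusted p = 0.00191). It ranked 12 and 4 by p among all genes tested. The direct comparison gave 5.73-fold more in ATF6N than in XBP1S (2.52, SE 0.27, adjusted p = 0.0337). No other gene of the table shares exon bases with it. The markers of macrophages, which are known to express Slc2a6, summed to 42.1, 59.5 and 57.6 CPM on average in GFP, XBP1S and ATF6N. The part of macrophages in the result was not tested.

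The call of Slc2a6 in ATF6N against GFP held under all 12 alternatives, with log2 fold changes of 5.89 to 6.27 and adjusted p-values up to 0.0282. That in XBP1S was lost without XBP1S replicate 1 (edgeR adjusted p = 0.133) or 2 (0.128), without ATF6N replicate 2 (0.0542) and when only the 4 libraries compared were fitted (0.171, with 0.0909% of genes passing), while the log2 fold change stayed between 3.39 and 3.80. The direct comparison was lost without any one of its 4 libraries (adjusted p = 0.271 to 0.378, log2 fold change 2.42 to 2.61).

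Slc2a4 (chromosome 11, 69942286 to 69948190), the insulin-responsive transporter of muscle and fat, stood at 539 and 652 CPM in GFP, 428 and 442 in XBP1S and 686 and 665 in ATF6N. Both XBP1S libraries were the lowest, and both ATF6N libraries the highest, of the 6. The differences did not pass: the log2 fold change was -0.45 (SE 0.19, edgeR adjusted p = 0.429) in XBP1S, 0.18 (SE 0.19, 0.608) in ATF6N and 0.63 (SE 0.19, 0.214) between them. The summed cardiomyocyte markers had the same order of groups, with means of 117019, 91977 and 134046 CPM in GFP, XBP1S and ATF6N. In ATF6N that sum was carried by Myh6, at 66565 and 65071 CPM against 22991 and 41121 in GFP. There 6 of the 10 markers had negative log2 fold changes against GFP, and their median was -0.30. In XBP1S against GFP, 9 of the 10 had negative log2 fold changes, with a median of -0.55. The part of the markers in the result was not tested.

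Slc2a1 (chromosome 4, 119108745 to 119137329), the basal transporter, stood at 16.5 and 24.4 CPM in GFP, 18.8 and 20.1 in XBP1S and 22.5 and 20.7 in ATF6N. The GFP libraries spanned those of both treated groups. Its log2 fold changes were -0.07, 0.08 and 0.15 (SE 0.25 each; edgeR adjusted p = 0.924, 0.878 and 0.845), and without TMM scaling, on library size alone, the first was 0.18 and the third -0.06. GENCODE places the antisense gene Gm12868 over its exons, and reads without strand cannot separate the 2. Endothelial cells also express Slc2a1. The summed endothelial markers, given above, were highest in XBP1S and lowest in ATF6N. Of the 10, 9 had log2 fold changes above 0 in XBP1S against GFP (median 0.46). In ATF6N, 9 lay below 0 against GFP (median -0.67) and 10 against XBP1S (median -1.09). None of these markers passed in any comparison. The part of endothelial cells in the result was not tested.

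Slc2a12 (chromosome 10, 22645011 to 22703880), which encodes the insulin-responsive GLUT12, and Slc2a3 (chromosome 6, 122727809 to 122742745), which encodes the neuronal transporter GLUT3, were scarce and were both lowest in GFP replicate 1. Slc2a12 stood at 2.50 and 7.16 CPM in GFP, 5.61 and 7.54 in XBP1S and 7.98 and 7.13 in ATF6N. Slc2a3 had 2 reads in GFP replicate 1 and 71 in replicate 2, against 131 and 114 in XBP1S and 90 and 70 in ATF6N. The 2 GFP libraries thus differed more than the groups did. No difference of either passed edgeR's test on 6 libraries, with the smallest adjusted p at 0.487. Without GFP replicate 2, which leaves replicate 1 as the only control, Slc2a3 passed in XBP1S (log2 fold change 6.04, edgeR adjusted p = 0.0218, with 2.11% of genes passing) and in ATF6N (5.66, adjusted p = 0.0202), and Slc2a12 in ATF6N (1.61, edgeR adjusted p = 0.0318). In that fit 3055 of 15274 genes passed in ATF6N against GFP.

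**Figure D3:**
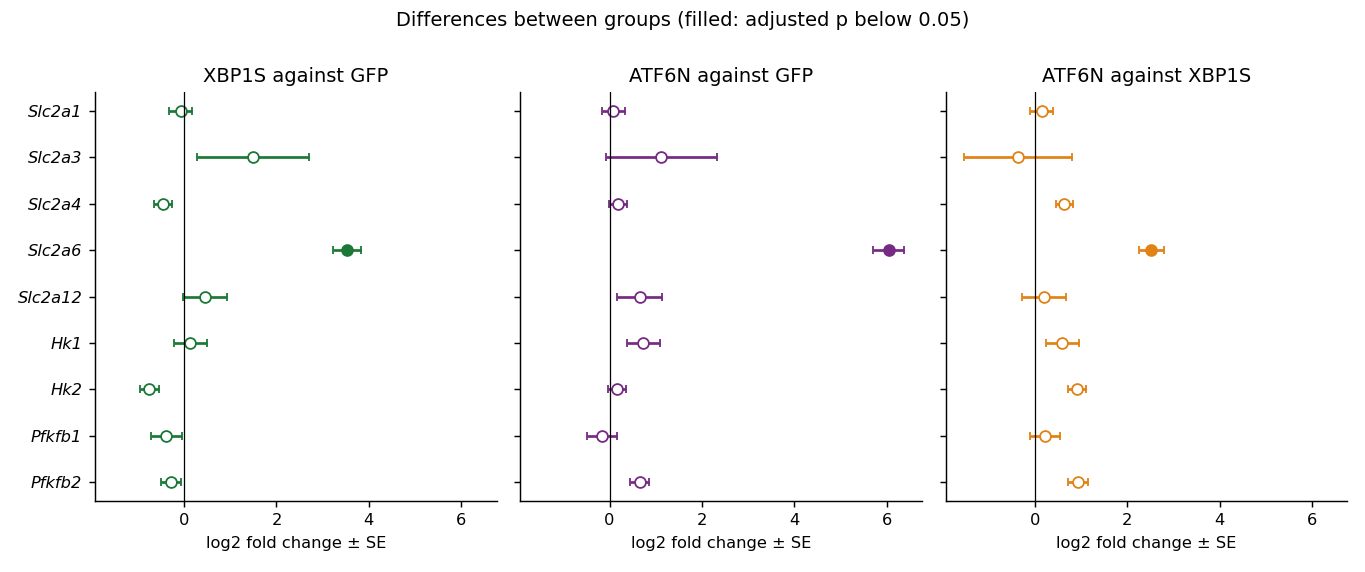
Log2 fold change of each gene with its standard error in the 3 comparisons, filled where edgeR's adjusted p was below 0.05. Slc2a6 is the one filled point in each panel, at 3.53, 6.04 and 2.52, and Slc2a3 has the widest errors.

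Hk1 (chromosome 10, 62268855 to 62379908), the hexokinase of most tissues, stood at 179 and 375 CPM in GFP, 256 and 353 in XBP1S and 446 and 475 in ATF6N. Both ATF6N libraries lay above the other 4, and the spread of GFP came from its low replicate 1. The log2 fold change was 0.73 (SE 0.36, edgeR adjusted p = 0.391) in ATF6N, 0.14 (SE 0.36, 0.895) in XBP1S and 0.60 (SE 0.36, 0.534) between them. Without GFP replicate 2 the value in ATF6N was 1.37 and passed (edgeR adjusted p = 0.0311), in the fit where 3055 genes did. Without GFP replicate 1 it was 0.30. The antisense gene Hk1os of GENCODE overlaps its exons.

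Hk2 (chromosome 6, 82725027 to 82774454), the insulin-regulated hexokinase of muscle and heart, stood at 187 and 194 CPM in GFP, 100 and 126 in XBP1S and 220 and 205 in ATF6N. The groups did not overlap, with XBP1S lowest at 40.6% below the mean of GFP. The log2 fold change was -0.75 (SE 0.20, edgeR adjusted p = 0.249) in XBP1S, 0.16 (SE 0.20, 0.675) in ATF6N and 0.91 (SE 0.20, 0.122) between them, so none passed on 6 libraries. The last difference passed with DESeq2 (adjusted p = 0.00849, 5.39% of genes passing) and with edgeR on the 4 libraries compared (0.0415, 4.62%), without GFP replicate 1 (0.0392, 4.75%) and without GFP replicate 2 (0.0487, 4.27%).

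Of the summed RPKM of Hk1 and Hk2, Hk1 held 54.0% and 70.2% in GFP, 75.7% and 77.4% in XBP1S and 71.3% and 73.9% in ATF6N. Every treated library had a higher Hk1 share than both control libraries, but ATF6N replicate 1 (71.3%) lay close to GFP replicate 2 (70.2%). The low control value of 54.0% was that of GFP replicate 1, which lay away from the other libraries. The sum itself was 73.6 and 118 RPKM in GFP, 75.1 and 101 in XBP1S and 139 and 142 in ATF6N. No test was run on these shares.

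Pfkfb2 (chromosome 1, 130689043 to 130729253) encodes the heart isoform, which is phosphorylated in response to insulin and adrenaline. It stood at 50.6 and 54.5 CPM in GFP, 37.1 and 49.0 in XBP1S and 83.7 and 81.2 in ATF6N. The groups did not overlap. Against GFP the log2 fold change was 0.65 (SE 0.21, edgeR adjusted p = 0.311) in ATF6N and -0.29 (SE 0.21, 0.644) in XBP1S. Between the treated groups it was 0.94 (SE 0.21, 0.128), a 1.91-fold difference. It passed with DESeq2 (adjusted p = 0.0112, 5.39% of genes passing) and with edgeR on the 4 libraries compared (0.0467, 4.62%). In edgeR it failed with the replicate number as a block (0.0712), without the filter on low counts (0.0684), with size-factor normalization (0.128) and on library size alone (0.218). With 1 library left out it passed only without GFP replicate 1 (log2 fold changes 0.71 to 1.15). The gene shares 154 exon bases with Yod1 on the opposite strand, and in GENCODE up to 208 with Gm29427 on the same strand, so reads there could belong to either gene.

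Pfkfb1 (chromosome X, 150589921 to 150643860), the isoform of liver and skeletal muscle, stood at 4.45 and 5.96 CPM in GFP, 4.97 and 3.01 in XBP1S and 4.79 and 4.49 in ATF6N. All 3 groups overlapped, and none of its log2 fold changes passed edgeR's test: -0.38 (adjusted p = 0.677), -0.17 (0.799) and 0.22 (0.823), each with an SE of 0.33. It is the one X-linked gene of the 9. Per exon length Pfkfb2 exceeded Pfkfb1 in every library, by 1.34 to 3.24 times. Without division by exon length the ratio was 7.48 to 18.1, so its size depends on the exon lengths used.

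Among 17 other genes of these families, 12 passed the filter on low counts, and 1 of them passed the test. Pfkfb3, the inducible isoform with the strongest kinase activity, stood at 17.5 and 26.9 CPM in GFP, 5.32 and 7.57 in XBP1S and 4.61 and 4.76 in ATF6N. Pfkfb3 fell in ATF6N (-2.24, SE 0.31, edgeR adjusted p = 0.0462), and its -1.78 (SE 0.31) in XBP1S had an adjusted p of 0.0943. The intracellular transporter gene Slc2a8 stood at 59.3 and 50.1 CPM in GFP, 37.2 and 29.8 in XBP1S and 42.7 and 46.9 in ATF6N (log2 fold change -0.71, SE 0.22, edgeR adjusted p = 0.302, in XBP1S). Slc2a2, the transporter gene of liver, was at most 0.630 CPM in any library and was at 0 in GFP replicate 2 and ATF6N replicate 1.

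This call of Pfkfb3, near the threshold, was lost without either library of XBP1S (edgeR adjusted p = 0.120 and 0.122) or ATF6N (0.433 and 0.444), with the 4 libraries compared (0.136, where 0.0567% of genes passed) and on library size alone (0.0751). The other end of the range was DESeq2, with which Pfkfb3 passed in ATF6N (adjusted p = 2.84e-08, with 3.76% of genes passing) and in XBP1S (3.94e-05, 2.99%). The direction held in all 12 alternatives of each of these comparisons.

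**Figure D4:**
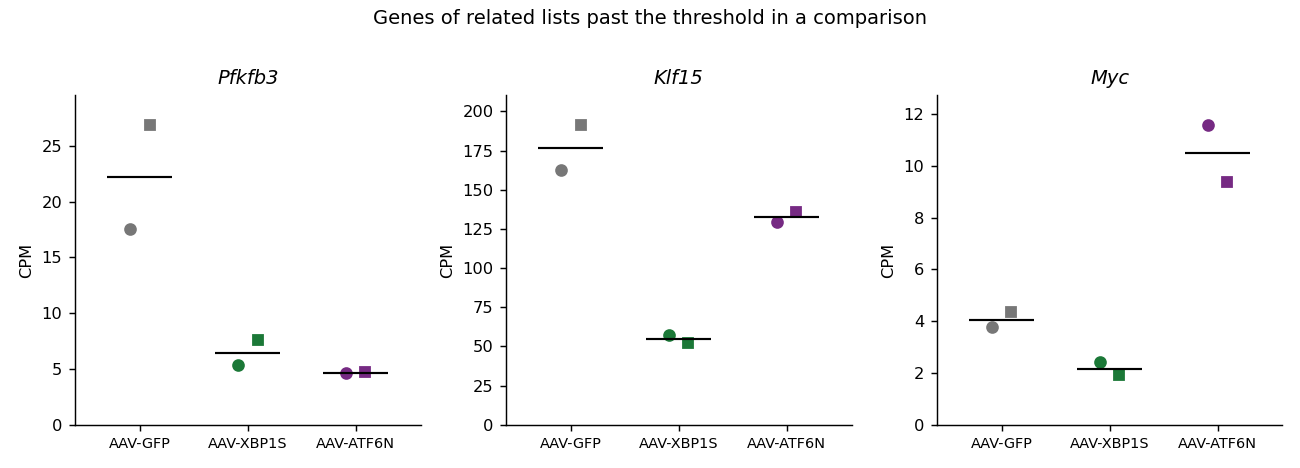
CPM of Pfkfb3, Klf15 and Myc in the 6 libraries, with replicate 1 as a circle, replicate 2 as a square and the group mean as a line. Myc is lowest in XBP1S and highest in ATF6N, Klf15 is lowest in XBP1S, and Pfkfb3 is highest in GFP.

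Among 17 transcription factors known to act on Slc2a4, Slc2a1 or Hk2, 16 were tested and 2 passed. Klf15, a Krüppel-like factor known to raise Slc2a4 in muscle, stood at 162 and 191 CPM in GFP, 57.1 and 52.1 in XBP1S and 129 and 136 in ATF6N. It fell in XBP1S (log2 fold change -1.70, SE 0.20, edgeR adjusted p = 0.0322) and was not called in ATF6N (-0.42, SE 0.19, 0.383) or between the 2 (1.28, SE 0.20, 0.0601). Myc, which acts on glycolytic genes, stood at 3.77 and 4.35, 2.42 and 1.91, and 11.6 and 9.39 CPM in GFP, XBP1S and ATF6N. It was higher in ATF6N than in XBP1S (2.28, SE 0.28, edgeR adjusted p = 0.0479). The call of Klf15 was lost without either XBP1S (0.356 and 0.434) or ATF6N library (0.147 and 0.148), with the 4 libraries compared (0.170) and on library size alone (0.0641), and that of Myc without any of the 4 libraries compared (0.322 to 0.453). Ppargc1a, the coactivator PGC-1α, had 1.25 (SE 0.21, edgeR adjusted p = 0.0689) between the treated groups, and the nuclear receptor gene Nr4a1 1.0 (SE 0.24, 0.207) in XBP1S. The median of the 16 was -0.20 in XBP1S, 0.36 in ATF6N and 0.52 between them.

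No gene of the glycogen, insulin signalling, later glycolysis or pentose phosphate lists passed in any comparison. Of 20 genes of glycogen metabolism, all tested, 12 lay above GFP in every ATF6N library and none below, with a median log2 fold change of 0.57. Against XBP1S, 17 lay above and 1 below with a median of 0.67, while the median in XBP1S against GFP was -0.04. Over all genes tested, 27.9% lay above and 26.7% below in the first comparison, and 30.1% and 26.8% in the second. The smallest p among them against GFP was that of Ppp1r3a, a muscle subunit that targets protein phosphatase to glycogen, at 52.6 and 66.4 CPM in GFP, 54.8 and 94.9 in XBP1S and 155 and 148 in ATF6N (1.35, SE 0.30, edgeR adjusted p = 0.160). Ppp1r3b, of the same family, had 1.14 (SE 0.36), the uridyltransferase gene Ugp2 0.54 (SE 0.20) and the liver phosphorylase gene Pygl 0.74 (SE 0.24) there. Phkg1, a phosphorylase kinase subunit, had -0.72 (SE 0.21) in XBP1S.

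Insulin signalling and GLUT4 traffic had medians of 0.00, 0.31 and 0.29 over 29 genes in XBP1S against GFP, ATF6N against GFP and ATF6N against XBP1S. Lnpep, the aminopeptidase that resides in GLUT4 vesicles, stood at 14.1 and 21.6 CPM in GFP, 12.6 and 23.1 in XBP1S and 40.3 and 39.9 in ATF6N (1.17, SE 0.35, edgeR adjusted p = 0.278, against GFP). Pik3r1, the regulatory subunit of the kinase that insulin activates, had 1.08 (SE 0.23, 0.107) between the treated groups. Akt2, the kinase that releases GLUT4 vesicles, had -0.64 (SE 0.19, 0.288) in XBP1S, where Txnip, an inhibitor of glucose uptake, had -0.87 (SE 0.21, 0.207). Stx4a, a syntaxin of vesicle fusion, had -0.93 (SE 0.31) in ATF6N, and Rab13 -1.11 (SE 0.32) between the treated groups.

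The 24 tested genes of later glycolysis, with lactate and pyruvate transport, had medians of -0.21, -0.06 and 0.10 in the same order. Fbp2, the muscle fructose bisphosphatase, stood at 40.5 and 32.6 CPM in GFP, 13.8 and 10.4 in XBP1S and 17.4 and 13.4 in ATF6N. Its log2 fold change was -1.60 (SE 0.26, edgeR adjusted p = 0.0887) in XBP1S and -1.25 (SE 0.26, 0.140) in ATF6N. The lactate transporter gene Slc16a3 had 1.5 (SE 0.35, 0.205) in XBP1S, its relative Slc16a4 1.80 (SE 0.67) and Bpgm, a bisphosphoglycerate mutase, -0.88 (SE 0.26) in ATF6N. The 8 pentose phosphate genes had medians of -0.05, -0.19 and -0.20, with G6pdx at 0.89 (SE 0.44) and Rpia at -1.94 (SE 0.95) in XBP1S, and Tkt at -0.65 (SE 0.21) between the treated groups. The value of Rpia rested on GFP replicate 1, with 3.50 CPM against 0.547 in replicate 2, and was -0.054 without it, and that of G6pdx ran from 0.38 to 1.68 as 1 library was left out. Tigar, listed as 9630033F20Rik, which lowers fructose bisphosphate, had 0.58 (SE 0.21, 0.296) between them.

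**Figure D5:**
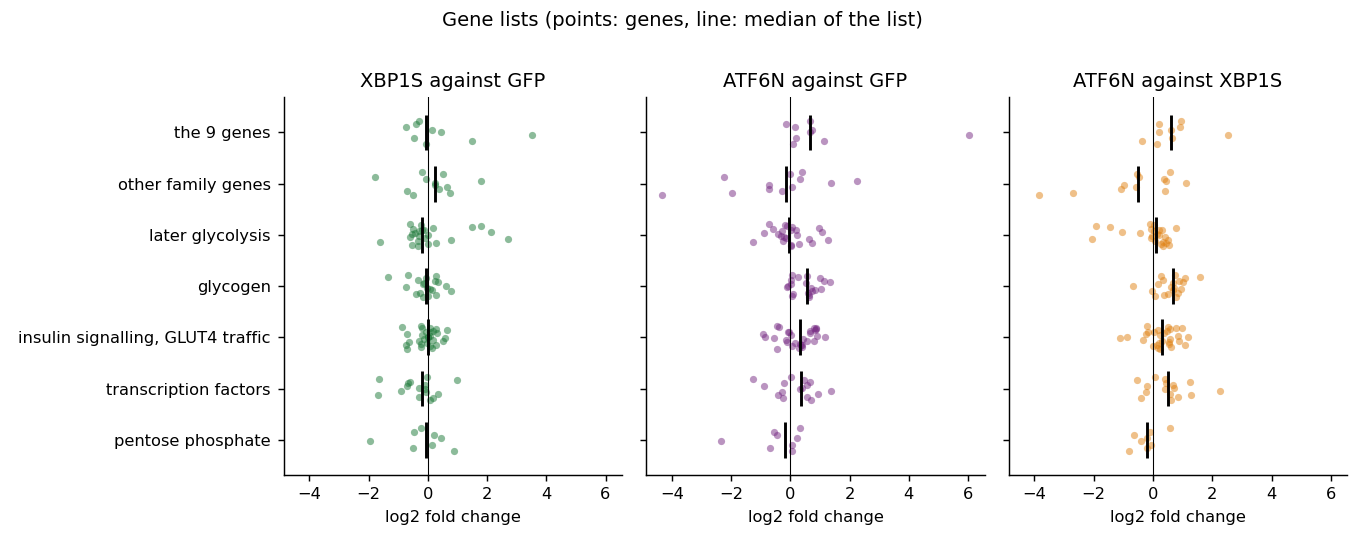
Log2 fold changes of the genes of each list in the 3 comparisons, with 1 point per gene and a line at the list's median. The glycogen list has medians of -0.04, 0.57 and 0.67, and the lone point far to the right in the top row is Slc2a6.

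Genes whose pattern over the 6 libraries was most like that of a gene of the 9 were sought by the root mean square difference of centred log2 CPM, among 9541 genes with a mean of at least 5 CPM. For Hk1 they were Pitrm1 (0.03) and Rhot1 (0.04), with 47.2 and 62.6 CPM in GFP replicate 1 and 102 and 124 in replicate 2. For Slc2a12 they were Pdik1l (0.05) and Zfp641 (0.06), and for Slc2a3 Fndc1 (0.35) and Ttll4 (0.57). All 6 were lowest in GFP replicate 1. For Slc2a6 the nearest were the natriuretic peptide gene Nppa (0.94) and the ER chaperone cofactor gene Sdf2l1 (0.96), beside an SD of 2.57 for Slc2a6 itself. Sdf2l1 stood at 18.1 and 12.3 CPM in GFP, 77.5 and 56.4 in XBP1S and 153 and 166 in ATF6N, the same order of groups as Slc2a6. All these genes were chosen for their likeness over the same libraries, so a shared order follows from the choice and is no separate evidence. The other 5 of the 9 genes varied by less than the 0.5 set as a minimum.

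For Slc2a6 the authors' deposited table lists 3.54 as the log2 fold change in XBP1S against GFP (adjusted p 0.000106, with 1.31% of genes passing) and 6.06 in ATF6N (adjusted p 5.27e-35, with 2.71% passing). The authors' deposited table gives no other gene of the 9 an adjusted p below 0.05, the smallest being that of Pfkfb2 in ATF6N (0.268, log2 fold change 0.66). Hk2 has -0.76 with an adjusted p of 0.589 in XBP1S in the authors' deposited table.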

How the data were processed

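The authors deposited raw whole-number read counts per gene for 6 libraries. The submitters' processing notes name STAR, featureCounts and the mm10 build, and no source used here gives their versions, the annotation release or a strand setting. Per the labels, cDNA was made with a SMART-Seq kit, which does not mark strand, and libraries with Nextera XT. The deposited comparison tables hold, per the file headers, log2 fold changes, their errors and Wald statistics as scores, and p-values; the processing notes name DESeq2 and DESeq. They were used only where named. Exon lengths for RPKM came from the deposited count table.

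The groups came from the labels. Genes were kept by filterByExpr (count minimum 10), and edgeR 4.0.16 (TMM, quasi-likelihood test, two-sided, Benjamini-Hochberg over 14587 genes, threshold 0.05) was run in R 4.3.3 on the 6 libraries together, with no covariate beside group, leaving 3 residual degrees of freedom. CPM use TMM-adjusted library sizes. The SE is the log2 fold change divided by the square root of F. The fit was tested on simulated data. DESeq2 1.42.0 was an alternative. All 6 count columns were used. Of the lists' symbols, those missing were matched through RefSeq synonyms, and Slc2a4rg stayed unmatched. The members and lists were chosen with earlier results of these data known. Besides the 9 genes, Xbp1, Atf6 and the markers, the genes named were those of each list past the threshold or with the 2 smallest p per comparison, and the 2 nearest patterns of members with an SD of log2 CPM of at least 0.5 (log2 of CPM plus 0.05). The result of 1 other gene is not reported here.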

Additional observations from a re-analysis of the deposited data

How the results depend on the processing

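With 2 libraries a group, the test rests on a shared spread, and leaving out 1 library leaves a lone sample assumed to vary like the others. The numbers of the 9 genes called (1 in each comparison) were 0 in XBP1S against GFP with the 4 libraries compared, and 3 in ATF6N against XBP1S with DESeq2 or with the 4 libraries. Leaving out 1 library gave 0 to 2, 1 to 4 and 0 to 3 in XBP1S against GFP, ATF6N against GFP and ATF6N against XBP1S. Over all genes, 46, 75 and 33 were called in that order. DESeq2 called 477, 573 and 803, no filter on low counts 233, 348 and 458, the 4 libraries compared 13, 8 and 663, and leaving out 1 library 2 to 322, 6 to 3055 and 1 to 717. On library size alone the third count was 130 (37 higher and 93 lower, against 25 and 8), the first 50 (38 and 12, against 26 and 20) and the median of all genes tested moved to 0.25 in XBP1S against GFP and to -0.22 in ATF6N against XBP1S. The third comparison split 305 to 498 with DESeq2.

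The replicate numbers were shared between groups, but deviations of same-numbered libraries correlated at 0.38, -0.04 and -0.05 over genes, and nothing in the labels pairs them. With the replicate number as a block, 165, 237 and 356 genes were called and the same 1 gene of the 9 in each comparison.

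Of 324 alternative values for the 9 genes, 293 kept direction and side of the threshold, 11 passed newly, 8 lost their call and 12 changed sign. The sign changes all fell on differences that were not called. On library size alone they were Slc2a1 (0.18 in XBP1S against GFP, -0.063 in ATF6N against XBP1S) and Slc2a12 (-0.013 in the latter). Leaving out 1 library gave ranges, in XBP1S against GFP, of -0.33 to 0.27 for Slc2a1, -0.13 to 1.43 for Slc2a12 and -0.30 to 0.80 for Hk1. In ATF6N against GFP they were -0.18 to 0.40 for Slc2a1 and -0.36 to 0.072 for Pfkfb1, and in ATF6N against XBP1S -0.039 to 0.43 for Slc2a12 and -0.10 to 0.58 for Pfkfb1. The same alternatives were applied to the other named genes after seeing the data. On library size alone Tigar (9630033F20Rik) had 0.065 and Ugp2 0.13 in XBP1S against GFP, and Lnpep had -0.020 with the block. Leaving out 1 library there gave -0.35 to 0.0078 for 9630033F20Rik, -0.30 to 0.070 for Ugp2, -0.11 to 0.72 for Ppp1r3a, -0.20 to 0.75 for Ppp1r3b, -0.50 to 0.42 for Lnpep and -1.54 to 7.14 for the scarce Slc2a2. In ATF6N against GFP it gave -0.25 to 0.47 for Slc16a3, -0.76 to 0.97 for Slc16a4, -0.23 to 0.019 for Akt2, -0.44 to 0.84 for G6pdx and -7.76 to 3.31 for Slc2a2. In ATF6N against XBP1S it gave -0.17 to 0.069 for Pygl, -0.49 to 0.049 for Stx4a and -1.0 to 0.58 for Rpia. The causes were not tested.

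Without division by exon length, the share of Slc2a4 among the 5 transporters in ATF6N was 94.1% in place of 93.6%, and that of Hk1 among both hexokinases 57.4% in GFP, 72.8% in XBP1S and 68.4% in ATF6N in place of 62.1%, 76.6% and 72.6%. Depth limits Slc2a6 and Slc2a3 most, with 20 and 11, and 2 and 71 reads in the controls.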
